A study of Mus musculus with 9 samples.

Results

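The inflammatory caspases of the mouse are encoded by 3 neighbouring genes of chromosome 9, Casp1, Casp4 and Casp12, and their transcripts were examined in natural killer (NK) cells of 3 Tyk2 genotypes. The 3 genes were selected by their symbols in the platform annotation, and each had 1 probe set of its own among the 41345 on the array: 17514435 for Casp4, 17514424 for Casp1 and 17514447 for Casp12. They were singled out with their differences from wild type in these same arrays already known, so those differences are described below and not tested. Casp4 and Casp1 were among the 12579 genes that passed the filter on low values, which asked for a value at or above the median of the array on at least 3 of 9 arrays. Casp12 did not pass it.

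Inflammatory caspases are cysteine proteases that are made as inactive precursors and turn microbial signals into cell lysis and cytokine release. Caspase-1 is recruited by inflammasomes, which assemble around sensors such as NLRP3, AIM2 and NAIP with NLRC4, and it cleaves pro-interleukin-1 beta, pro-interleukin-18 and the pore-forming protein gasdermin D. The product of mouse Casp4, long called caspase-11, binds bacterial lipopolysaccharide in the cytosol and cleaves gasdermin D directly. Its gene is inducible by interferons and lipopolysaccharide in macrophages, the cells in which the pathway is best known. Casp12 encodes a caspase found at the endoplasmic reticulum. TYK2 is a Janus kinase at the receptors for type I interferons and for interleukin-12 and related cytokines.

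The cells came from spleens of female C57BL/6N mice that were Tyk2-/- (lacking Tyk2), Tyk2K923E (kinase-inactive Tyk2) or wild type (WT). For each genotype and experiment, NK cells from a pool of 3 to 4 mice were enriched with DX5 beads, and all groups then received IL-2 (human, recombinant; 5000 U/ml) over a culture of 7 days. There were 3 independent experiments with 1 array per genotype in each, so that each genotype has 3 arrays and arrays are paired by experiment number. Each value stands for a pool and not for 1 mouse. Values are log2 units after robust multi-array average (RMA) normalisation by the authors, and a difference of 1 is a doubling of the signal.

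The arrays of experiment 1 stood apart from the other 6 on the first principal component, which held 61.0% of the variance, and within an experiment the genotypes deviated together. The probe set of Tyk2 read 9.55, 8.63 and 8.85 in Tyk2-/-, 8.63, 8.43 and 8.52 in Tyk2K923E and 8.68, 8.56 and 8.63 in WT cells. The deleted part of the gene and the probe positions are not given in the sources used here, so this cannot check the labels. All 12 NK cell markers passed the filter. Of these, 7 in Tyk2-/- and 8 in Tyk2K923E lay below WT, with a median difference of -0.16 in Tyk2-/- and -0.12 in Tyk2K923E. At an unadjusted limma p under 0.05 there were 5 of the 12 in each mutant, beside 9.08% of all genes tested in Tyk2-/- and 10.0% in Tyk2K923E. Klrd1 differed by -0.35 in both, and Klrk1 by -0.32 in Tyk2-/- and -0.47 in Tyk2K923E. The log2 of the summed linear signal of the 12 differed by -0.04 in Tyk2-/- and -0.02 in Tyk2K923E. Itga2, which encodes the DX5 antigen used for the enrichment, differed from WT by -0.39 in Tyk2-/- (limma adjusted p = 0.25) and by -0.71 in Tyk2K923E (adjusted p = 0.037). The call of Itga2 in Tyk2K923E was lost without the pairing (adjusted p = 0.15) and without any 1 of the Tyk2K923E or WT arrays, and over 19 alternatives its limma adjusted p ranged from 0.022 to 0.39. Of 8 T cell markers, 7 passed the filter, and Cd4 did not. Of the 7, 6 in Tyk2-/- and 7 in Tyk2K923E lay below WT. Among all genes tested, 48.1% in Tyk2-/- and 49.1% in Tyk2K923E did. Cd8a differed most of the 7, by -0.32 in Tyk2-/- and -0.92 in Tyk2K923E (limma adjusted p = 0.69 and 0.17). Of 9 measured markers of monocytes and macrophages, Csf1r, Adgre1, Lyz2, Fcgr1, Mpeg1 and Ly86 stayed below the filter, whereas Cd14, Mertk and Cd68 passed it. Cd14 differed from WT by 0.20 in Tyk2-/- and 0.42 in Tyk2K923E (limma adjusted p = 0.47 and 0.10), Mertk by -0.03 in Tyk2-/- and -0.00091 in Tyk2K923E, and Cd68 by -0.08 in Tyk2-/- and -0.24 in Tyk2K923E. The medians of the arrays lay between 5.42 and 5.48.

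The 250 bases before the annotated start are shown for Casp4 and Casp1, the 2 genes with a signal above the array medians (RefSeq, GRCm38.p6, plus strand). Casp4 has 2 annotated starts, and the more upstream one is used, chr9:5308599-5308848; the stretch of Casp1 is chr9:5298267-5298516. Capitals mark matches to the NF-κB consensus.
Casp4: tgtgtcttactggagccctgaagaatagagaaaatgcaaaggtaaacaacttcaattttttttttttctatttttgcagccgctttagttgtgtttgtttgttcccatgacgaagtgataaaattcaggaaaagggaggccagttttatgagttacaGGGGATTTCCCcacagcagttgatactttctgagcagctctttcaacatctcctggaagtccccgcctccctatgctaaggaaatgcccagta
Casp1: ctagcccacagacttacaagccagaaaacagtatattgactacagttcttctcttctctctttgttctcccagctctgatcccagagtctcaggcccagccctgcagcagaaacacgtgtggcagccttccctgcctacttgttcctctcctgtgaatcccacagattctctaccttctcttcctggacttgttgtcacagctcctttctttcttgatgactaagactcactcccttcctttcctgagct
In the Casp4 stretch 2 overlapping matches to the NF-κB consensus lay 93 to 83 bases before the start, and the Casp1 stretch held none. Of 32851 promoter stretches of this length, 3.90% held such a match on either strand. Neither stretch matched the core of the interferon-stimulated response element (GAAA and GAAA with 2 bases between them), which 2.98% of the stretches held, or the STAT motif (TTC and GAA with 3 bases between them), which 7.02% held; both strands were searched. The stretch before Casp12, which is not printed, matched the STAT motif at 2 places. A match is a description of letters, and nothing is drawn from its presence or absence.

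Casp4 was lower in both mutants than in WT cells in every experiment. Its values in experiments 1, 2 and 3 were 5.70, 6.13 and 5.86 in Tyk2-/- cells, 6.31, 6.14 and 5.81 in Tyk2K923E cells and 8.56, 7.75 and 7.35 in WT cells. No array of either mutant reached the lowest WT array, which stood more than 1 unit above the highest mutant one. The means were 5.90 ± 0.21 in Tyk2-/-, 6.08 ± 0.25 in Tyk2K923E and 7.89 ± 0.61 in WT (SD, n = 3 each), so that the WT cultures varied most among themselves.

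Paired by experiment, Casp4 differed between Tyk2-/- and WT by -2.85, -1.62 and -1.49, with a mean of -1.99 ± 0.75 (SD of 3 differences), which is 3.97-fold lower. Between Tyk2K923E and WT it differed by -2.25, -1.62 and -1.54, with a mean of -1.80 ± 0.39, or 3.49-fold lower. Both comparisons use the same WT arrays. Among all 12579 genes tested, the difference of Casp4 was the most negative in Tyk2-/- and the second most negative in Tyk2K923E. In both mutants the difference was widest in experiment 1, where the WT array was highest, and without experiment 1 it was -1.56 in Tyk2-/- and -1.58 in Tyk2K923E. The mutant values lay within 1 unit above the array medians and no background level was measured, so how far the signal of Casp4 could still fall is unknown.

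Casp1 was also lower in both mutants in each experiment, by less. It read 8.61, 8.74 and 8.06 in Tyk2-/- cells, 8.86, 8.22 and 8.31 in Tyk2K923E cells and 9.48, 9.05 and 8.82 in WT cells. All Tyk2-/- arrays lay below all WT arrays, whereas the Tyk2K923E array of experiment 1 was above the WT array of experiment 3. The paired differences were -0.87, -0.32 and -0.76 in Tyk2-/- (mean -0.65 ± 0.29, 1.57-fold lower than WT) and -0.62, -0.83 and -0.51 in Tyk2K923E (mean -0.65 ± 0.16, 1.57-fold lower than WT). The smallest of these 6 differences, 1.25-fold, was that of Tyk2-/- in experiment 2. Among the 12579 genes, Casp1 ranked 20th from the most negative in Tyk2-/- and 28th in Tyk2K923E.

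Casp12 gave a low reading on all arrays. It read 3.39, 3.25 and 3.25 in Tyk2-/-, 3.45, 3.25 and 3.22 in Tyk2K923E and 3.42, 3.25 and 3.53 in WT cells, and the groups overlapped. The value 3.24633 occurred on 4 of 9 arrays, and 0 arrays reached the array median. The mean differences from WT were -0.10 ± 0.16 in Tyk2-/- and -0.09 ± 0.19 in Tyk2K923E, each smaller than its SD. With no background level measured, these readings do not show whether Casp12 transcript was present.

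**Figure D1:**
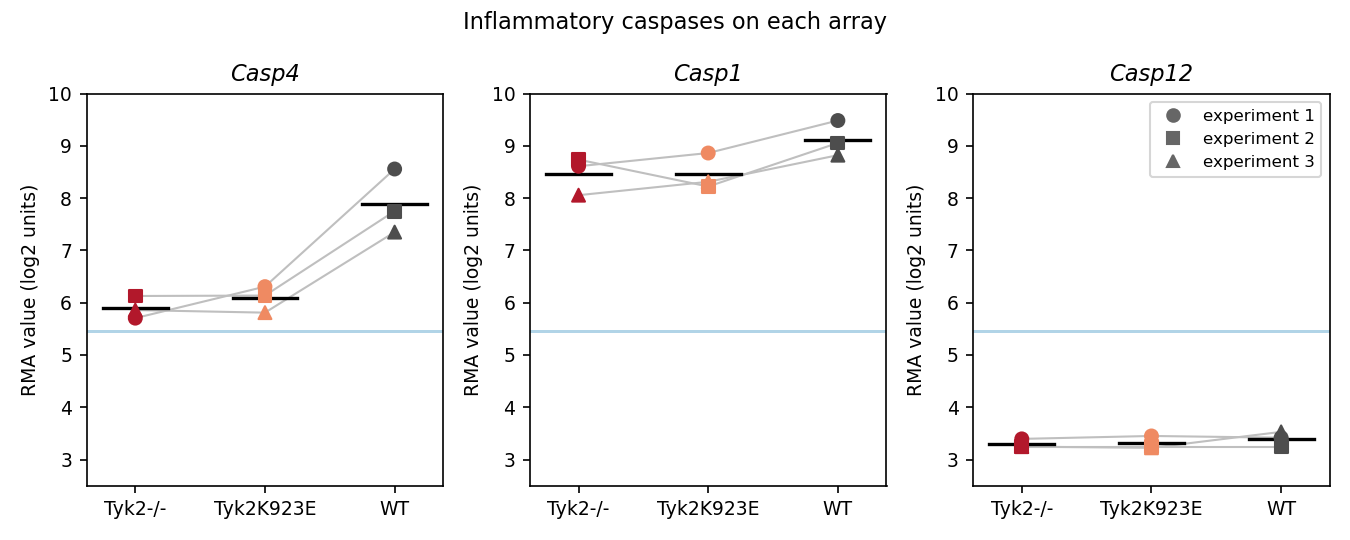
RMA values (log2 units, vertical axis) of Casp4, Casp1 and Casp12 on each array by genotype; symbols mark the experiment, grey lines join arrays of 1 experiment, black bars are means of 3 arrays and the blue band spans the array medians (5.42 to 5.48). Casp4 separates the mutants (5.70 to 6.31) from WT (7.35 to 8.56), Casp1 is lower in the mutants within each experiment, and Casp12 lies below the band on all 9 arrays.

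Of all genes tested, 2.74% had every Tyk2-/- array below every WT array, as Casp4 and Casp1 had, and 3.80% had every Tyk2K923E array below every WT array, as Casp4 had. Since the genes were singled out in these contrasts, nothing is read from these counts. In bulk RNA, fewer cells that express a gene and less RNA per cell cannot be told apart. Of the 9 measured monocyte and macrophage markers, whose cells are known for high Casp4 and Casp1, the summed linear signal was 631 to 720 in Tyk2-/-, 586 to 748 in Tyk2K923E and 589 to 822 in WT, and the ranges overlapped. The log2 of that sum differed from WT by -0.0082 in Tyk2-/- and -0.0052 in Tyk2K923E on average, with -0.19 in Tyk2-/- and -0.13 in Tyk2K923E in experiment 1, where the Casp4 difference was widest. In this sum Cd14, whose mean was higher in both mutants, and Cd68, whose mean was lower, offset each other, and most of the other markers were below the filter. For 8 T cell markers the sums were 6283 to 8901 in Tyk2-/-, 5251 to 6566 in Tyk2K923E and 6044 to 8934 in WT, and the mean log2 difference from WT was -0.05 in Tyk2-/- and -0.34 in Tyk2K923E, where it was -0.66 in experiment 1. For 5 basophil and mast cell markers, of which Mcpt8 and Cpa3 passed the filter and Fcer1a, Ms4a2 and Gata2 did not, they were 1321 to 2272 in Tyk2-/-, 1564 to 2350 in Tyk2K923E and 1060 to 1366 in WT. This sum was higher than in WT in 3 of 3 experiments in each mutant, with a mean log2 difference of 0.45 in Tyk2-/- and 0.75 in Tyk2K923E. It rests mainly on Mcpt8, the brightest of the 5, which differed by 0.49 in Tyk2-/- and 0.77 in Tyk2K923E. Cpa3 differed by -0.02 in Tyk2-/- and 0.91 in Tyk2K923E, so it did not rise with Mcpt8 in Tyk2-/-. For 7 dendritic cell markers the sums were 1961 to 2284 in Tyk2-/-, 1727 to 2959 in Tyk2K923E and 1958 to 3007 in WT. The mean log2 difference was -0.12 in Tyk2-/-, where it was -0.40 in experiment 1, and -0.06 in Tyk2K923E. Of the 7, Zbtb46, Cd209a, H2-Ab1 and H2-Aa passed the filter, and Flt3, Xcr1 and Siglech did not. H2-Ab1 differed by -0.28 in Tyk2-/- and -0.18 in Tyk2K923E, whereas H2-Aa differed by 0.16 in Tyk2-/- and 0.14 in Tyk2K923E. The part of monocytes, macrophages, T cells, basophils, mast cells and dendritic cells in the caspase differences was not tested.

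The direct comparison of the mutants asks whether absence of TYK2 and loss of its kinase activity go with different caspase levels. As far as the sources used here tell, the choice of the genes did not use this comparison. The genes were still chosen with earlier results of these data known, so its independence from the choice is not shown. Casp4 differed between Tyk2-/- and Tyk2K923E by -0.60, -0.01 and 0.05 in the 3 experiments, with a mean of -0.19 ± 0.36. The limma fit paired by experiment gave an adjusted p of 0.79 over all genes, with a 95% interval of -0.70 to 0.33. Casp1 differed by -0.25, 0.51 and -0.26, with a mean of 0.0019 ± 0.44, an interval of -0.32 to 0.33 and a limma adjusted p of 1. Casp12, from the limma fit without a filter, differed by -0.01 with an interval of -0.21 to 0.18 and an adjusted p of 0.98. None passed, and in this comparison 3 of 12579 genes (0.0238%) did. The intervals leave room for a difference of up to 0.70 in Casp4, so the mutants are not shown to be alike.

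The genes whose pattern over the 9 arrays was most like that of Casp4 were sought after the mean of each experiment was subtracted. The measure was the root mean square distance between a gene's centred values and those of Casp4, in log2 units. The 8 nearest were Ifi214 (0.39), Ifi27 (0.40), Rtp4 (0.48), Ccl5 (0.53), Usp18 (0.53), Cd7 (0.57), Trim30d (0.58) and Itgam (0.59), against a median of 0.94 over 12577 genes. Casp1 lay at 0.64. A gene with the same value on all arrays of an experiment would lie at 0.93. The measure thus depends on the size of a difference as well as on its pattern. The nearest, Ifi214, encodes an interferon-activated protein of the p200 family, and it read 4.04, 4.82 and 4.82 in Tyk2-/-, 4.61, 4.73 and 4.62 in Tyk2K923E and 5.56, 6.05 and 5.80 in WT cells. It differed from WT by -1.24 in Tyk2-/- and by -1.15 in Tyk2K923E. Ifi214 lay below the array median on all mutant arrays and passed the filter only through the 3 WT arrays, so its place among the genes tested rests on the group where it was high. Trim30d likewise reached the array median on 1 Tyk2-/- array, 0 Tyk2K923E arrays and 3 WT arrays. Ifi27, an interferon-inducible gene, differed by -1.35 in Tyk2-/- and -1.80 in Tyk2K923E, and Rtp4, whose product helps receptors reach the cell surface, by -1.11 in Tyk2-/- and -1.40 in Tyk2K923E. Usp18, whose product restrains signalling by the type I interferon receptor, differed by -1.26 in Tyk2-/- and -1.19 in Tyk2K923E, and Trim30d by -0.86 in both. The chemokine gene Ccl5 (-1.05 in Tyk2-/- and -1.01 in Tyk2K923E), Cd7 (-0.79 in Tyk2-/- and -0.98 in Tyk2K923E) and the integrin gene Itgam (-1.18 in Tyk2-/- and -0.72 in Tyk2K923E) completed the 8. These 8 genes lie on chromosomes 1, 6, 7, 11, 12 and 16, none on chromosome 9. They were picked for their likeness, so their differences are not tested here.

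**Figure D2:**
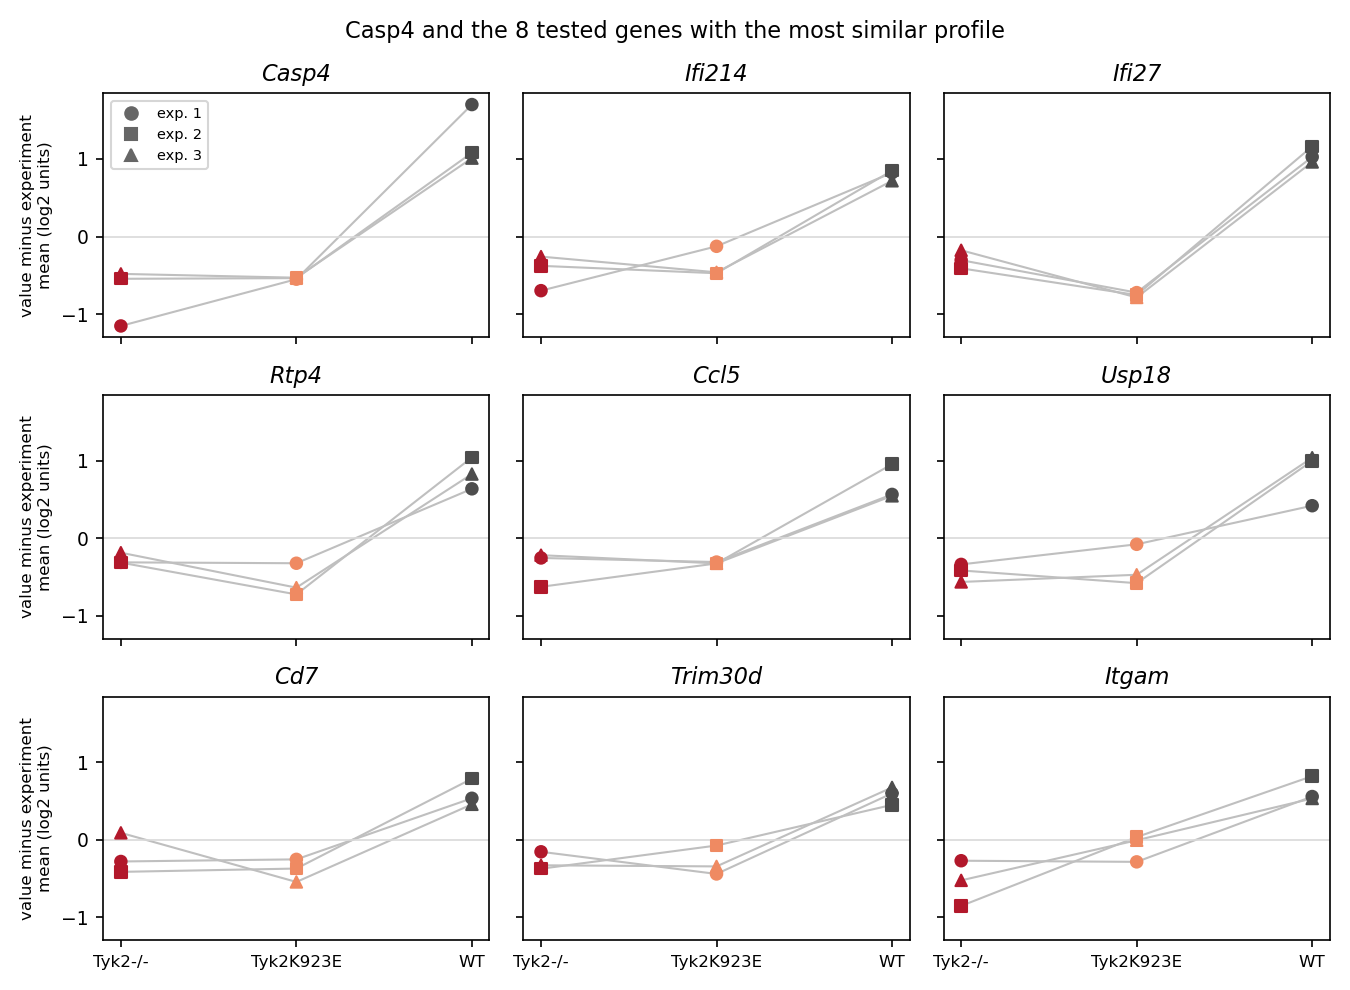
Values minus the mean of their experiment (log2 units, vertical axis) for Casp4 and the 8 tested genes with the smallest root mean square distance to it, by genotype, with a symbol per experiment and grey lines joining arrays of 1 experiment. In each panel all 3 WT points lie above 0; the distances to Casp4 run from 0.39 for Ifi214 to 0.59 for Itgam.

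The pathway around these caspases was followed with 6 lists that hold 75 genes. The lists were chosen with earlier results of these data known. Their counts and p-values are therefore not an independent test of the pathway. Of the 75 genes, 65 could be measured and 52 passed the filter. None of the 52 passed an adjusted p of 0.05 in limma paired by experiment in either mutant against WT, where 11 of 12579 genes (0.0874%) did in each comparison, and none passed without the pairing. At an unadjusted p under 0.05 there were 8 of the 52 in Tyk2-/-, where 9.08% of all genes tested were, and 11 of the 52 in Tyk2K923E, where 10.0% were. The median difference over the 52 was -0.06 in each mutant, beside 0.0045 in Tyk2-/- and 0.0020 in Tyk2K923E over all genes tested, and 39 of the 52 in Tyk2-/- and 40 in Tyk2K923E lay below 0, as did 48.1% of all genes in Tyk2-/- and 49.1% in Tyk2K923E.

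Sensors and adaptors of inflammasomes had 10 tested members of 16, with a median of -0.12 in Tyk2-/- and -0.06 in Tyk2K923E and 0 past the threshold. Pycard, which encodes the adaptor ASC that links sensors to caspase-1, read 8.32, 7.71 and 7.83 in Tyk2-/-, 8.37, 8.05 and 7.93 in Tyk2K923E and 8.39, 8.33 and 8.12 in WT cells. The mutant and WT ranges met in both comparisons, and the differences were -0.33 (SE 0.10, limma adjusted p = 0.41) in Tyk2-/- and -0.16 (adjusted p = 0.65) in Tyk2K923E. Naip5, a sensor of bacterial flagellin, differed by -0.25 in Tyk2-/- and -0.36 in Tyk2K923E (adjusted p = 0.58 and 0.37) and Naip6 by -0.18 in Tyk2-/- and -0.32 in Tyk2K923E. Txnip, a thioredoxin-binding protein gene, differed by -0.29 in Tyk2-/- and -0.06 in Tyk2K923E. Nlrp1a, Nlrp1b, Nlrc4, Mefv and Nlrp6 were below the filter.

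The substrates and cytokines had 6 tested members of 9, with a median of 0.0010 in Tyk2-/- and 0.03 in Tyk2K923E. Gsdmd, the gene of gasdermin D, read 7.99, 7.92 and 7.88 in Tyk2-/-, 7.96, 7.96 and 7.91 in Tyk2K923E and 8.06, 7.94 and 7.96 in WT cells. The ranges overlapped, and the differences of -0.05 in Tyk2-/- and -0.04 in Tyk2K923E had limma adjusted p of 0.81 and 0.85. Il18, the gene of a cytokine that caspase-1 matures, differed by -0.19 in Tyk2-/- and 0.06 in Tyk2K923E, Gsdme by 0.00062 in Tyk2-/- and 0.21 in Tyk2K923E and Il18bp by 0.04 in Tyk2-/- and 0.12 in Tyk2K923E. Il1b, Il1a and Il33 were below the filter.

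The cytosolic lipopolysaccharide pathway had 10 tested members of 15, with a median of -0.12 in Tyk2-/- and -0.27 in Tyk2K923E and 0 past the threshold. It holds guanylate-binding proteins and immunity-related GTPases, which open bacterial compartments or bind lipopolysaccharide. The list also holds genes of surface lipopolysaccharide sensing, such as Tlr4. Of the 10, 8 in each mutant lay below WT, as 48.1% of all genes tested did in Tyk2-/- and 49.1% in Tyk2K923E. Tlr4 lay above WT, by 0.12 in Tyk2-/- and 0.32 in Tyk2K923E. Irgm1 read 6.56, 6.68 and 6.68 in Tyk2-/-, 6.43, 6.68 and 6.64 in Tyk2K923E and 6.93, 7.04 and 6.79 in WT cells. All mutant arrays lay below all WT arrays, as for 2.74% of all genes tested in Tyk2-/- and 3.80% in Tyk2K923E, each mutant taken alone. The differences were -0.28 (SE 0.08, limma adjusted p = 0.37) in Tyk2-/- and -0.34 (adjusted p = 0.17) in Tyk2K923E. Gbp3 differed by -0.29 in Tyk2-/- and -0.26 in Tyk2K923E (adjusted p = 0.25 and 0.18), and Ly96, the partner of the surface lipopolysaccharide receptor TLR4, by -0.27 in Tyk2-/- and -0.26 in Tyk2K923E. Igtp differed by -0.02 in Tyk2-/- and -0.45 in Tyk2K923E (adjusted p = 0.96 and 0.13), and the difference between the mutants, 0.43, had an adjusted p of 0.40 in limma.

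Among transcription factors and receptors that are known to act on Casp4 or Casp1, 12 of 14 were tested, with medians of -0.07 in Tyk2-/- and -0.10 in Tyk2K923E. Irf9, a transcription factor that acts in the response to type I interferon, came nearest to the threshold. It read 8.02, 7.94 and 7.79 in Tyk2-/-, 8.15, 8.02 and 7.71 in Tyk2K923E and 8.58, 8.36 and 8.28 in WT cells. All mutant arrays lay below all WT arrays, as for 2.74% of all genes tested in Tyk2-/- and 3.80% in Tyk2K923E, each mutant taken alone. The differences were -0.49 (SE 0.07, limma adjusted p = 0.065) in Tyk2-/- and -0.45 (SE 0.07, adjusted p = 0.068) in Tyk2K923E, and over 19 alternatives the adjusted p ranged from 0.035 to 1 in Tyk2-/- and from 0.039 to 0.82 in Tyk2K923E. With an intensity trend in the variance model Irf9 passed in both. Irf1, an interferon-induced factor, differed by -0.10 in Tyk2-/- and -0.29 in Tyk2K923E, Ifnar2, a type I interferon receptor chain, by -0.12 in Tyk2-/- and -0.28 in Tyk2K923E, and Ifngr2 by 0.19 in Tyk2-/- and 0.16 in Tyk2K923E.

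None of the tested caspases of other families passed the threshold. Casp2, Casp6, Casp8 and Casp9 were the 4 tested of 7, and their differences ran from -0.07 to -0.04 in Tyk2-/- and from -0.09 to -0.06 in Tyk2K923E. Casp8, the initiator caspase of death receptors, read 11.80, 11.91 and 11.88 in Tyk2-/-, 11.63, 11.99 and 11.87 in Tyk2K923E and 11.80, 11.98 and 12.01 in WT cells, and the groups overlapped. Its limma adjusted p was 0.81 in Tyk2-/- and 0.72 in Tyk2K923E.

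Inhibitors and regulators of caspases had 10 tested members of 14, medians of -0.05 in Tyk2-/- and -0.04 in Tyk2K923E and 0 past the threshold. Birc2, a ubiquitin ligase that restrains cell death, differed by -0.19 in Tyk2-/- and -0.12 in Tyk2K923E and its neighbour Birc3 by -0.09 in Tyk2-/- and -0.07 in Tyk2K923E. Ripk3, a kinase of necroptosis, differed by -0.04 in Tyk2-/- and -0.24 in Tyk2K923E (limma adjusted p = 0.92 and 0.36), and Xiap by -0.06 in Tyk2-/- and -0.07 in Tyk2K923E.

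**Figure D3:**
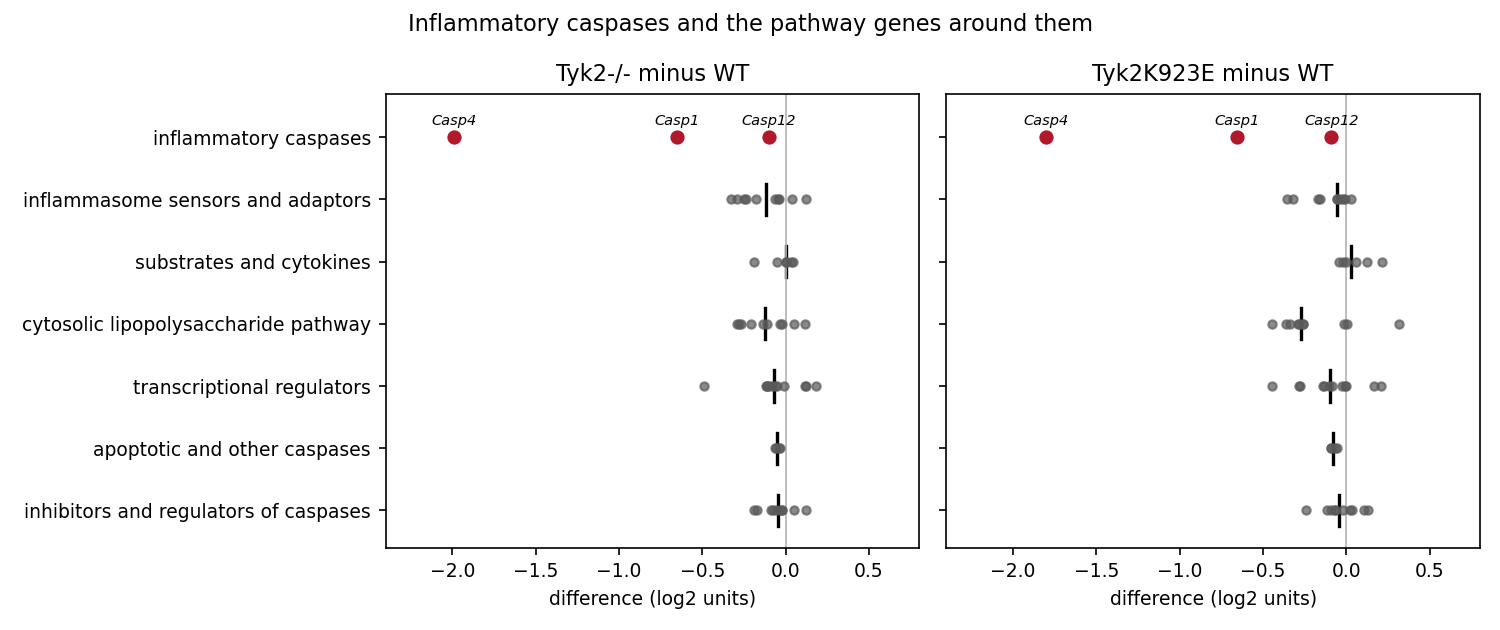
Differences from WT (log2 units, horizontal axis) of the 3 inflammatory caspases (red) and of the tested genes of 6 pathway lists (grey, with black bars at the list medians), for Tyk2-/- on the left and Tyk2K923E on the right. Casp4 lies at -1.99 in Tyk2-/- and -1.80 in Tyk2K923E, whereas the 52 pathway genes run from -0.49 to 0.19 in Tyk2-/- and from -0.45 to 0.32 in Tyk2K923E.

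The position of the genes was followed last. In the RefSeq gene table (GRCm38.p6) Casp1, Casp4 and Casp12 stand next to each other on chromosome 9 with 0 other genes among them, and the table was used for order only, since the build of the array annotation is not given. Of the 10 genes on either side, 7 of 20 could be measured, and 3 of those passed the filter. Msantd4 differed from WT by -0.04 in Tyk2-/- and 0.03 in Tyk2K923E, Dync2h1 by 0.02 in Tyk2-/- and -0.15 in Tyk2K923E, and Dcun1d5 by -0.0090 in Tyk2-/- and -0.02 in Tyk2K923E, all with an adjusted p above 0.6 in limma.

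Tyk2 itself lies on the same chromosome, with 249 annotated genes between it and the cluster. Of these 46 were tested, with a median difference of -0.04 in Tyk2-/- and -0.03 in Tyk2K923E. In Tyk2K923E 1 of the 46, Cfap300, was past the threshold, and in Tyk2-/- there were 0. Of all 12579 genes tested, 11 (0.0874%) passed in each comparison. At an unadjusted limma p under 0.05 there were 5 of the 46 in Tyk2-/-, beside 9.08% of all genes tested. In Tyk2K923E there were 4 of the 46, beside 10.0%. Cfap300, which encodes a cilia- and flagella-associated protein, read 6.49, 6.45 and 5.80 in Tyk2-/-, 6.86, 6.19 and 5.91 in Tyk2K923E and 5.52, 5.40 and 5.02 in WT cells. The mutant arrays all lay above the WT arrays. The share of all genes with that pattern was not counted, so nothing is read from it. The WT readings of 5.40 and 5.02 lay below the array medians (5.42 to 5.48), so Cfap300 passed the filter only with the mutant arrays. Its place among the genes tested thus rests on the groups where it was high. The differences were 0.93 (SE 0.12, limma adjusted p = 0.053) in Tyk2-/- and 1.01 (adjusted p = 0.037) in Tyk2K923E, and the call in Tyk2K923E was lost without the pairing (adjusted p = 0.77) and in most fits that left out 1 array or experiment. Zfp846 differed by -0.43 in Tyk2-/- and -0.21 in Tyk2K923E, Maml2 by -0.10 in Tyk2-/- and -0.42 in Tyk2K923E and Zfp317 by -0.23 in Tyk2-/- and -0.15 in Tyk2K923E, and none of these passed.

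**Figure D4:**
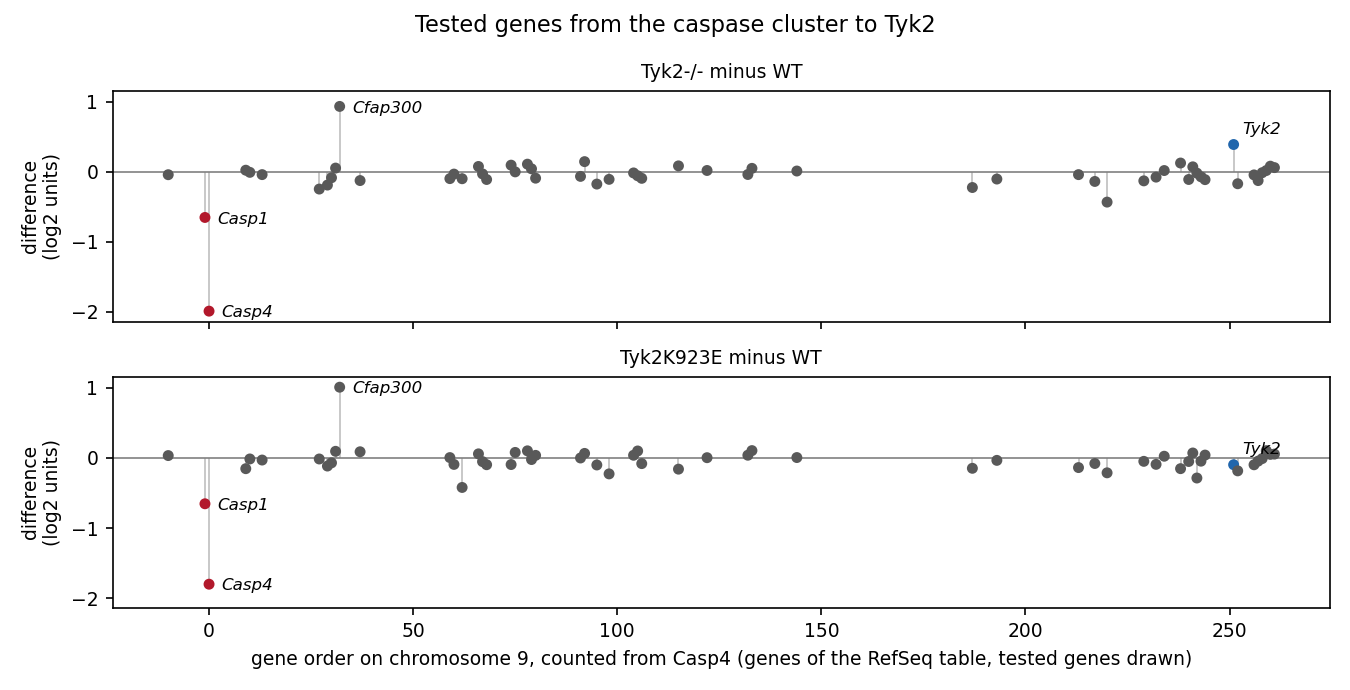
Differences from WT (log2 units, vertical axis) of the tested genes of chromosome 9 in the order of the RefSeq table, counted from Casp4 (horizontal axis), for Tyk2-/- above and Tyk2K923E below; Casp4 and Casp1 are red and Tyk2 is blue. Casp4 (-1.99 in Tyk2-/- and -1.80 in Tyk2K923E) and Casp1 (-0.65 in both) lie lowest and Cfap300 (0.93 in Tyk2-/- and 1.01 in Tyk2K923E) highest.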

How the data were processed

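RNA of 9 IL-2-expanded NK cell cultures (3 genotypes, 3 experiments) was hybridised to Affymetrix arrays. The deposited values are log2 intensities that the authors had normalised with RMA in Partek 6.6, per the submitters' processing notes; they ran from 1.10 to 14.1 and were used as given. Probe sets were named through the platform annotation: 23521 of 41345 carried 1 symbol. Probe sets below the array median on more than 6 of 9 arrays were left out, and the brightest stood for its gene (12579 genes). Genotypes were compared with limma 3.58.1 in R 4.3.3 (all 9 arrays, experiment as a block, Benjamini-Hochberg over all genes, threshold 0.05). The labels give the experiments, so arrays are paired; deviations from genotype means correlated at 0.38 to 0.79 within experiments and at -0.71 to 0.56 between them. The number of arrays limits the precision. The caspases and the lists were chosen with earlier results of these data known.

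From each pathway or position list, genes past the threshold and the 4 with the largest mean difference over both mutants were named. Alternatives were no pairing, no filter, quantile normalisation, median centring, the mean over probe sets, an intensity trend, only the genotypes compared, and omission of single arrays or experiments. The procedure was run on simulated data with independent normal noise as a check of the code, and no result above rests on it.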

Additional observations from a re-analysis of the deposited data

How the results depend on the processing

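Of 19 alternatives, 11 can move a difference of Casp4 or Casp1 from WT, and none turned its sign; the genes were chosen from these same differences. Leaving out arrays or experiments, Casp4 ran from -2.24 to -1.56 in Tyk2-/- and from -1.99 to -1.47 in Tyk2K923E, and Casp1 from -0.86 to -0.53 in Tyk2-/- and from -0.76 to -0.48 in Tyk2K923E. Casp12 turned sign in Tyk2K923E (0.0081 without WT replicate 3 and 0.02 without experiment 3). Between the mutants the ranges held both signs, from -0.37 to 0.13 for Casp4, from -0.25 to 0.13 for Casp1 and from -0.073 to 0.031 for Casp12, and none passed under any alternative.

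The pairing leaves these differences as they are. Without the experiments as a block, 4 genes passed in Tyk2-/- and 1 in Tyk2K923E against WT, where 11 in each had passed; without the filter the counts were also 4 in Tyk2-/- and 1 in Tyk2K923E. In Tyk2K923E quantile normalisation gave 17 and median centring 20. An intensity trend gave 22 in Tyk2-/- and 41 in Tyk2K923E, with 1 pathway gene in each, Irf9 (adjusted p = 0.035 and 0.039). Only the 2 genotypes compared gave 6 in Tyk2-/- and 2 in Tyk2K923E. Leaving out arrays or experiments gave 3 to 11 genes in Tyk2-/-, 1 to 34 in Tyk2K923E and 2 to 6 between the mutants. The cause of these shifts was not tested, beyond the smaller number of arrays. Cfap300 in Tyk2K923E lost its call without pairing (adjusted p = 0.77), without the filter (0.15), with only the 2 genotypes (0.11), without experiment 1, 2 or 3 (0.27, 0.091 and 0.39), without Tyk2-/- replicate 1 or 3 (0.088 and 0.087), without Tyk2K923E replicate 1, 2 or 3 (0.072, 0.052 and 0.17) and without WT replicate 1, 2 or 3 (0.17, 0.2 and 0.14). In Tyk2-/- it passed with median centring, with an intensity trend, with only the 2 genotypes and without Tyk2K923E replicate 1 or 2 (adjusted p = 0.014 to 0.048). No background level was measured, which limits Casp4 in the mutants and Casp12 on all arrays.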
